A study of Sus scrofa with 2 samples.

Results

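The proteasome genes of porcine follicular granulosa cells were compared between a library from cells given a control siRNA (NC-siRNA) and a library from cells given an siRNA against SMAD4. They were taken as the mRNA rows of the deposited tables whose symbol begins with PSMA to PSMG and a digit, without the immunoproteasome genes PSMB8, PSMB9 and PSMB10. This gave 41 of 34570 rows. One of the 41, PSMC3IP, carries the symbol of a proteasome gene but encodes a meiotic recombination cofactor, and it is given apart. Of the other 40, 34 had a mean value over the 2 libraries of at least 1 and are called measured below. PSMA8, PSMB1, PSMB3, PSMB11 and PSMD7 were listed at 0 in both libraries, and PSMD10 had 1 read in each. PSMB1, PSMB3 and PSMD7 encode subunits found in proteasomes of all tissues, so a listed 0 does not show that a gene was silent.

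Granulosa cells are the somatic cells around the oocyte. They came from ovaries of Chinese Erhualian pigs, and both libraries share breed, sex and tissue. For each library the RNA of 3 individuals was pooled in equal amounts, so there is 1 sample per group, no replicate and no test between the conditions. The labels do not say whether the same animals gave both pools, and the siRNA cannot be told apart from differences between pools. The values are RPKM scaled to the upper quartile of the library, a level per transcript length, and the unit is meant wherever a level is given. Reads behind the values were recovered as described under processing, and each range after a ratio is a 95% counting interval that covers counting error alone. In each pair of values the control library comes first.

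The proteasome is the protease complex that degrades proteins tagged with ubiquitin. Its barrel-shaped core is built of alpha rings, which gate entry, and beta rings, which carry the active sites. A regulatory particle caps the core: its base unfolds substrates with a ring of ATPases, and its lid removes the ubiquitin chain. Other caps, the PSME activators, open the core without ubiquitin, and dedicated chaperones guide assembly. In granulosa cells, as in other cells, it clears regulators of the cell cycle and of transcription, and its products supply peptides for antigen presentation.

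The recovered reads came to at least 17680952 in control cells and at least 17394711 after SMAD4 siRNA. SMAD4 itself had a value of 85.0 with control siRNA and 47.9 with SMAD4 siRNA, a ratio of 0.563 (0.497 to 0.639). Of 9 granulosa markers, 7 were above 0, with summed values of 2121 in the control and 2290 in the SMAD4 siRNA library, while AMH and CYP19A1 were listed at 0. FSHR, counted as above 0, had only 9 reads in the control and 7 in the SMAD4 siRNA library. Without INHBA the sum was 1458 and 1421, and of the 6 other markers above 0, 4 had a ratio below 1. The theca cell markers CYP17A1, INSL3 and LHCGR were at 0 in both libraries. ACTA2 and DCN, stromal and smooth muscle genes also in that list, gave nearly all of its summed value, which was 551844 in the control and 343233 in the SMAD4 siRNA library. ACTA2, at 549693, had the highest control value of all measured genes. Leukocyte markers summed to 581 and 567, endothelial markers to 278 and 244, oocyte markers to 76.1 and 61.7, and erythroid markers to 4.53 and 4.63, in that order of libraries. The part of cell makeup in the results below was not tested, and in pooled bulk RNA fewer cells of a type and less RNA per cell cannot be told apart.

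As a group, the proteasome genes were higher in the SMAD4 siRNA library by a small amount. The median log2 ratio of (value + 1), SMAD4 siRNA over control, was 0.17 over the 34 measured genes, or 1.12-fold, against -0.05 over all 16609 measured genes. The ratio was above 1 for 25 genes and below 1 for 9, where it was above 1 for 7552 of all measured genes and below 1 for 9056. The summed level of the 34 genes was 60152 in control cells and 73899 after SMAD4 siRNA, a ratio of 1.23. PSME2 and PSME1 had the highest ratios of the 34, and PSMD12, PSMD4 and PSMG4 came next, followed by most core subunits as a block. Without PSME1 and PSME2 the median was 0.16.

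A gene was counted as higher or lower when its log2 ratio passed 1.3-fold. By that count 7 of 34 proteasome genes were higher and 0 were lower, where 19.4% of all measured genes were higher and 21.8% lower. The 7, or 20.6%, are a share near that background. The background holds many genes with few reads, which pass a small fold easily. Among the 9664 genes with at least 100 reads, 9.11% were higher and 14.4% lower, and 33 of the proteasome genes belong here, 7 of them higher (21.2%) and 0 lower. Counting intervals wholly above 1 were found for 18 of the 34 and intervals wholly below 1 for 2, against 12.7% and 21.5% of all measured genes. With at least 100 reads the same 18 and 2 stood against 17.6% and 32.4%. Genes with many reads have narrow intervals, and most proteasome genes have many.

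Over the 2878 genes whose control level lay between 398 and 3057, the middle range of the proteasome genes, the median log2 ratio was -0.07, and 3.34% were higher and 12.5% lower by 1.3-fold. The 16 proteasome genes of that range had a median of 0.04, with 3 higher and 0 lower. The median of these 16 was closer to that of other genes of like level than the median over all 34 was to all genes, whereas the 18.8% called higher lay further from the share of other genes than the 20.6% above. Above that range lay the core genes PSMA7, PSMB4, PSMB6 and PSMB7, the activators PSME1 and PSME2, and PSMC3, PSMD2 and PSMD8 of the cap.

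**Figure D1:**
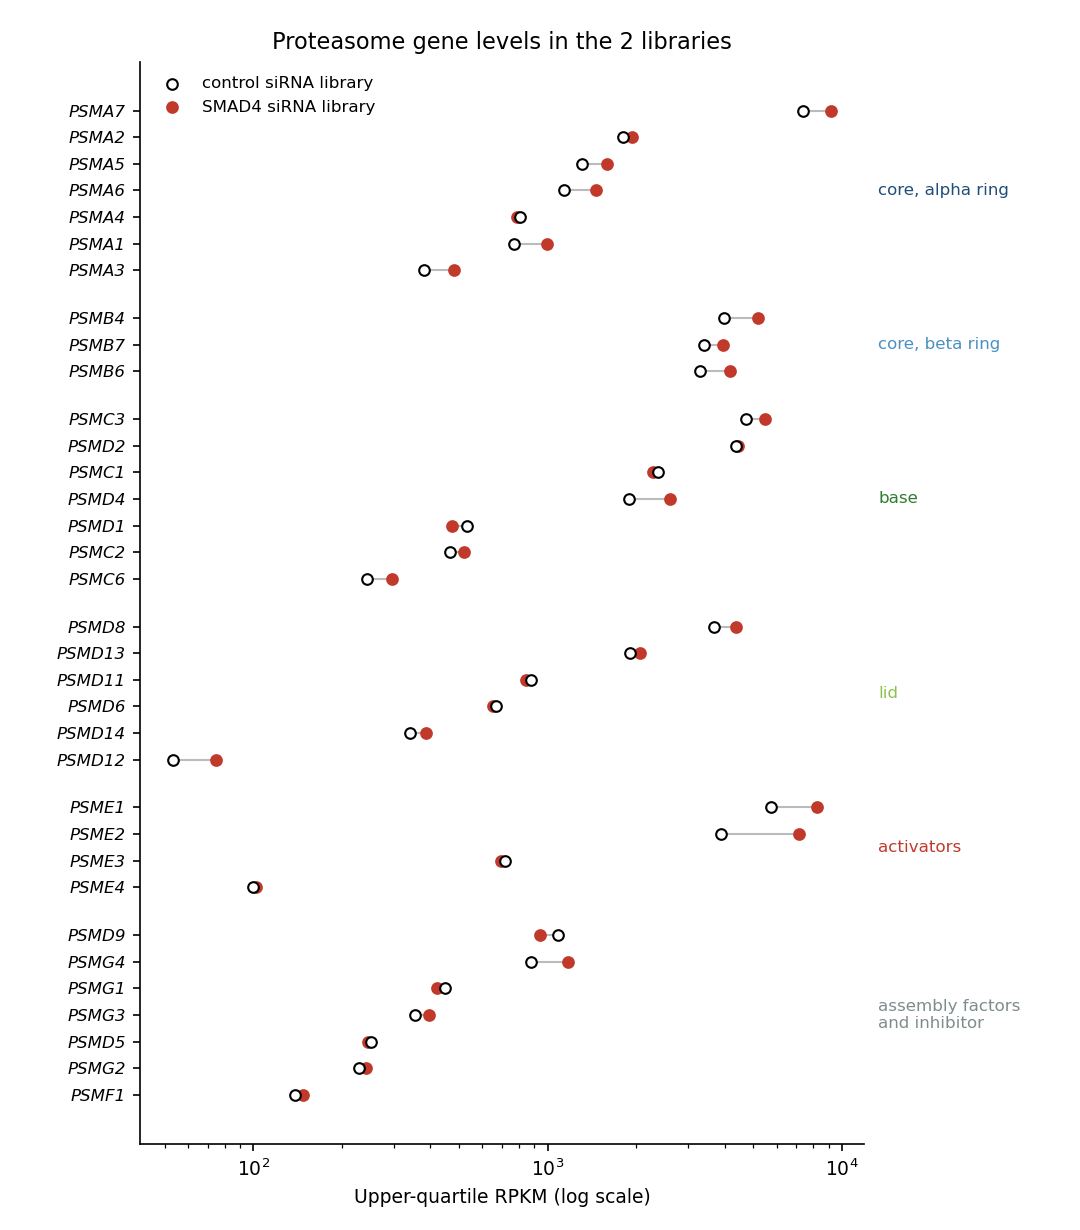
Level of each measured proteasome gene (upper-quartile RPKM, log axis) in the control siRNA library (open circles) and the SMAD4 siRNA library (red circles), grouped by subcomplex and ordered by control level; there is 1 library per group and so no error bar. Levels span from 53.5 (PSMD12) to 7383 (PSMA7) in the control library. Red points lie to the right of open ones for 25 of 34 genes, where 7552 of 16609 measured genes had a ratio above 1.

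The subunits of one complex did not have like values. In the control library they ran from 53.5 to 7383, a 138-fold range, and in the SMAD4 siRNA library from 74.7 to 9184, a 123-fold range. The order of the genes was nearly the same in both: across the 34 genes, Pearson's r of log2 levels was 0.993, a description over genes that share both libraries. The standard deviation of the log2 levels among genes was 1.79 in the control library, while that of the log2 ratios between libraries was 0.23. Differences in value between subunits were thus far wider than differences between libraries. Read assignment and annotation are not known, and their part in the differences between subunits was not tested. The 3 measured beta subunits lay closest together, between 3288 and 3963 in the control library. Lid subunits differed most within the particle, by 68.6-fold from PSMD12 to PSMD8.

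Core subunits were the most uniform of the 5 groups, with a standard deviation of 0.14 among their log2 ratios. Of 14 core genes 10 were measured, 9 of them had a counting interval wholly above 1, and 2 passed 1.3-fold. Of all measured genes 12.7% had an interval above 1 and 21.5% below, and 19.4% were higher by 1.3-fold, a share near the 2 of 10. With at least 100 reads, as all 10 core genes had, these shares were 17.6%, 32.4% and 9.11%. They are also the background for the counts of the groups and complexes below. The median log2 ratio of the core genes was 0.32, or 1.25-fold, with values from -0.04 to 0.39. The summed level of the core genes was 24238 with control siRNA and 29742 with SMAD4 siRNA.

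In the alpha ring, PSMA7 had the highest level of all members. It stood at 7383 in control cells and 9184 after SMAD4 siRNA, a ratio of 1.24 (1.18 to 1.31). PSMA1 was at 767 in control and 998 after SMAD4 siRNA, a ratio of 1.3 (1.19 to 1.42), which placed it just past the 1.3-fold line. PSMA6, just short of that line, was at 1138 and 1462, a ratio of 1.28 (1.18 to 1.39). These ring subunits were higher by about the same proportion, although PSMA7 was far above the others in level. PSMA3, the lowest core gene, measured 381 against 479, a ratio of 1.26 (1.11 to 1.42), and PSMA5 was at 1311 and 1591, a ratio of 1.21 (1.11 to 1.33). PSMA2 was at 1807 and 1941, a ratio of 1.07 (1.0 to 1.15) whose interval began just above 1. PSMA4 alone lay on the lower side, at 809 and 786, with a ratio of 0.972 (0.854 to 1.11) whose interval held 1. Of the 7 alpha genes measured, 6 had an interval above 1. PSMA8, the alpha subunit typical of testis, was the unmeasured one.

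In the beta ring, PSMB4, a subunit without an active site, was at 3963 in control and 5178 after SMAD4 siRNA. Its ratio was 1.31 (1.25 to 1.37), the highest in the core. PSMB6, which carries the caspase-like site, was at 3288 and 4178, a ratio of 1.27 (1.21 to 1.34). PSMB7, with the trypsin-like site, was at 3392 and 3945, a ratio of 1.16 (1.11 to 1.22). All 3 of these beta subunits had an interval above 1. PSMB5, with the chymotrypsin-like site, is listed under an ID without a symbol and was named from the RefSeq gene table, so that it is not among the 34. It was at 2590 in control and 2908 after SMAD4 siRNA, a ratio of 1.12 (1.07 to 1.18), the smallest ratio of the 3 catalytic subunits. PSMB2, named in the same way, was at 0 in both libraries, as was PSMB11, the beta subunit typical of thymus.

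**Figure D2:**
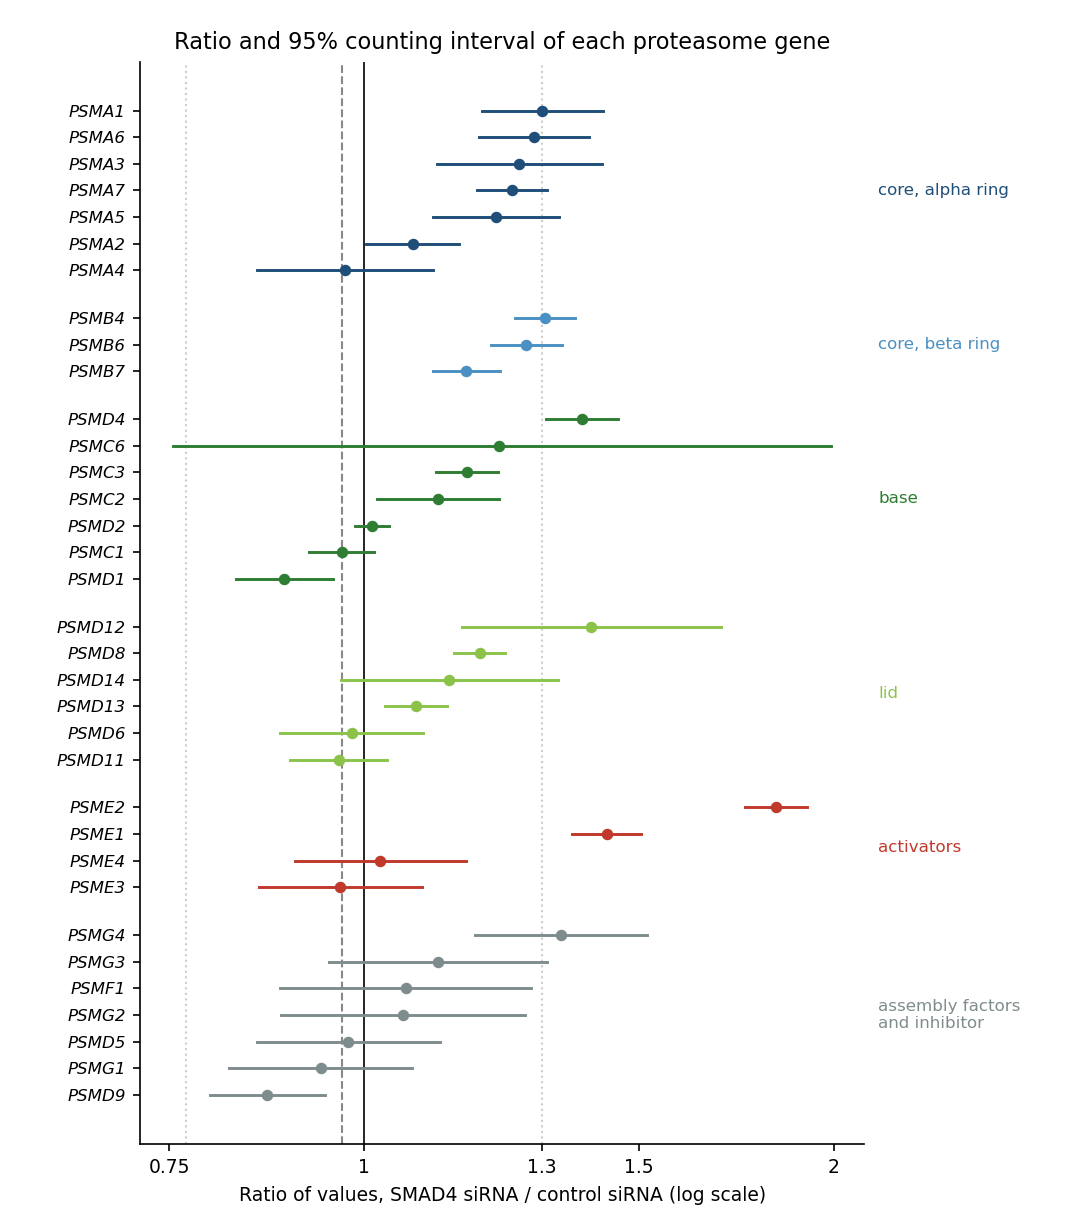
Ratio of SMAD4 siRNA to control siRNA values for each measured proteasome gene (points, log axis) with its 95% counting interval (bars, counting error alone), by subcomplex; the solid line marks 1, the dashed line the all-gene median and the dotted lines 1.3-fold in each direction. Core subunits lie together between 0.972 and 1.31, whereas PSME2 at 1.84 and PSME1 at 1.43 stand apart from PSME3 and PSME4 near 1.

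The base was mixed. Its 7 measured genes had a median log2 ratio of 0.16, with 5 above and 2 below 0, and 3 intervals lay above 1 and 1 below. PSMD4, a ubiquitin receptor that captures substrates, measured 1886 against 2600, a ratio of 1.38 (1.31 to 1.45), and alone passed 1.3-fold. PSMD2, a scaffold that docks ubiquitin shuttles, had the most reads of any member and was at 4377 and 4429, a ratio of 1.01 (0.987 to 1.04). PSMD1, the other large scaffold of the base, was at 532 in control and 473 after SMAD4 siRNA, a ratio of 0.889 (0.827 to 0.955). So PSMD4 and PSMD1, bound in the same particle, lay on opposite sides of 1.

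The ATPases of the base turn the unfolding ring. PSMC3 was at 4703 in control and 5477 after SMAD4 siRNA, a ratio of 1.16 (1.11 to 1.22), and PSMC2 was at 466 and 519, a ratio of 1.12 (1.02 to 1.22). PSMC1 was at 2364 and 2286, a ratio of 0.967 (0.922 to 1.01). PSMC6 was at 243 and 296, but its smallest whole reads were only 32 and 43, and its ratio of 1.22 had an interval from 0.754 to 1.99. Of the 4 ATPases measured under their own symbols, 3 had a ratio above 1 and 1 below, and 2 had an interval wholly above 1. The interval of PSMC6 may be too wide, since its reads are lower bounds. With the same sum and total reads scalings given below, PSMC1 was at 1.05 and 1.08. PSMC5, listed as TBP10, was at 2606 and 2506, a ratio of 0.961 (0.918 to 1.01), close to that of PSMC1. No row was matched to PSMC4. With at least 100 reads, which leaves out PSMC6, the median of the base was 0.09 over 6 genes.

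The lid had a median log2 ratio of 0.15 over 6 measured genes, of which 4 were above 0 and 3 had an interval above 1. PSMD12, a scaffold subunit with the lowest level of the 34, measured 53.5 against 74.7, a ratio of 1.4 (1.16 to 1.69) on 182 and 280 reads. PSMD8, also a structural subunit, was at 3671 and 4355, a ratio of 1.19 (1.14 to 1.23). PSMD13 was at 1911 and 2063, a ratio of 1.08 (1.03 to 1.13). These 3 were the lid genes with an interval above 1, and only PSMD12 passed 1.3-fold. PSMD14, the metalloprotease that cuts the ubiquitin chain from the substrate, was at 340 in control and 386 after SMAD4 siRNA, a ratio of 1.13 (0.966 to 1.33). PSMD6 was at 667 and 654, a ratio of 0.982 (0.883 to 1.09), and PSMD11, which links lid and core, at 880 and 847, a ratio of 0.963 (0.896 to 1.03). The intervals of PSMD14, PSMD6 and PSMD11 held 1. PSMD3, named from the RefSeq table, was at 2219 and 2251, a ratio of 1.01 (0.973 to 1.06).

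Core and regulatory particle can be set against each other within a library, which frees the comparison from the scaling of the libraries. The summed level of the core genes was 1.10 times that of base plus lid with control siRNA and 1.22 times with SMAD4 siRNA. The proportion was therefore 1.11-fold higher in the second library. For single genes, PSMB4 over PSMD2 was 0.905 in control cells and 1.17 after SMAD4 siRNA, higher by 1.29-fold (1.23 to 1.36). PSMD4 over PSMD2 was at 0.431 in control and 0.587 after SMAD4 siRNA, or 1.36-fold (1.28 to 1.45), although both belong to the base. The division between core and cap was thus not clean.

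The activators split into pairs. PSME1 and PSME2 form the ring that caps the core in antigen processing, and both are known to be induced by interferon. PSME1 measured 5745 against 8218, a ratio of 1.43 (1.36 to 1.5). PSME2 was at 3873 in control and 7117 after SMAD4 siRNA, a ratio of 1.84 (1.76 to 1.92), the highest of the 34. Both lay above every core subunit in ratio, and both were among the most strongly expressed members. PSME3, whose ring acts in the nucleus, was at 717 and 693, a ratio of 0.966 (0.857 to 1.09). PSME4, a single-chain nuclear activator, was at 99.7 and 102, a ratio of 1.02 (0.903 to 1.16). The median log2 ratio of the 4 activators, 0.28, falls between these pairs and describes neither.

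Within each library, PSME2 over PSME1 was 0.674 in control and 0.866 after SMAD4 siRNA, higher by 1.28-fold (1.20 to 1.38). PSME2 over PSME3 was 5.40 and 10.3, higher by 1.90-fold (1.67 to 2.16), and PSME1 over PSME3 was 8.01 and 11.9, higher by 1.48-fold (1.3 to 1.69). PSME2 thus differed more than its partner PSME1, and both differed more than PSME3. In the gene order of the RefSeq table of assembly Sscrofa11.1 they are separated by 1 gene, EMC9, a membrane protein insertase subunit. EMC9 was at 363 and 354, a ratio of 0.977 (0.833 to 1.15). IRF9, the interferon-response factor on the other side of PSME2, was at 1603 and 1426, a ratio of 0.889 (0.836 to 0.946). The higher values thus did not extend to EMC9 or IRF9.

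The immunoproteasome genes, left out of the 41, encode beta subunits that replace the standard catalytic ones and are likewise interferon-inducible. PSMB9, the counterpart of PSMB6, was at 67.8 in control and 186 after SMAD4 siRNA on 54 and 163 reads, a ratio of 2.74 (2.0 to 3.80). PSMB8, the counterpart of PSMB5, measured 425 against 689, a ratio of 1.62 (1.48 to 1.79). PSMB10 was listed at 0 in both libraries. The proportion of PSMB9 to PSMB6 was 0.0206 with control siRNA and 0.0445 with SMAD4 siRNA, higher by 2.16-fold (1.57 to 3.01). That of PSMB8 to PSMB5 was at 0.164 in control and 0.237 after SMAD4 siRNA, higher by 1.45-fold (1.3 to 1.61). In both libraries the standard subunit had the higher level. Leukocytes are known to express PSMB8 and PSMB9. The pan-leukocyte gene PTPRC had 1 and 2 reads and the macrophage gene CSF1R 8 and 3. The T cell gene CD3E was at 0, and the monocyte gene CD14 stood at 579 and 566. The part of leukocytes in these values was not tested.

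Assembly factors and the inhibitor had the smallest median, a log2 ratio of 0.08 over 7 measured genes, with 4 above and 3 below 0. It was 0.02 with PSMD10 counted. PSMG1 and PSMG2 form one chaperone of the alpha ring and PSMG3 and PSMG4 another. PSMG4 was at 878 in control and 1174 after SMAD4 siRNA, a ratio of 1.34 (1.18 to 1.52), the one member of the group past 1.3-fold. Its partner PSMG3 was at 354 and 395, a ratio of 1.11 (0.95 to 1.31). PSMG1 was at 450 and 422, a ratio of 0.938 (0.819 to 1.07), and PSMG2 at 228 and 241, a ratio of 1.06 (0.884 to 1.27), with intervals that held 1. Of the base chaperones, PSMD9 measured 1085 against 940, a ratio of 0.867 (0.796 to 0.943), the lowest ratio of the 34. PSMD5 was at 252 and 246, a ratio of 0.977 (0.854 to 1.12). PSMF1, an inhibitor of the core in the test tube, was at 139 and 148, a ratio of 1.06 (0.883 to 1.28). The median ratio of the core genes was above that of these helpers, although PSMG4 lay above every core gene and PSMA4 below 5 of the helpers. The summed level of the helpers over that of the core was at 0.140 in control and 0.120 after SMAD4 siRNA.

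PSMC3IP, the recombination cofactor, was at 31.7 and 46.6 on 37 and 60 reads, a ratio of 1.47 (0.962 to 2.28).

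Partners of the proteasome outside these symbols lay within 1.3-fold of equality. Of 8 genes listed, 6 were measured in 7 rows, with a median log2 ratio of 0.11, and 1 interval wholly above 1. USP14, a deubiquitinase of the base, was listed at 0, and no row was matched to the ubiquitin receptor ADRM1. POMP, which matures the core and is listed as a non-coding row named from the RefSeq table, was at 879 and 951, a ratio of 1.08 (0.838 to 1.4). SEM1, the smallest lid subunit, had a coding row at 449 and 499, a ratio of 1.11 (0.898 to 1.38), and a second, non-coding row at 326 and 281. PAAF1, a chaperone of the base, was at 300 and 351, a ratio of 1.17 (1.04 to 1.32), the only one with an interval above 1. UCHL5, a deubiquitinase bound to the base, had a ratio of 1.22 (0.840 to 1.77), AKIRIN2, which carries proteasomes into the nucleus, 1.01, and KIAA0368, which ties the core to its cap, 0.919 (0.838 to 1.01).

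Of 5 listed regulators of proteasome gene expression, 3 were measured, with a median log2 ratio of -0.22. NFE2L1 is the transcription factor that raises proteasome genes when degradation is blocked, and no row was matched to it or to DDI2, the protease that activates it. NGLY1, the enzyme that edits NFE2L1 into its active form, was at 174 in control and 133 after SMAD4 siRNA, a ratio of 0.765 (0.661 to 0.884). VCP, the ATPase that extracts NFE2L1 and other clients from the membrane, was at 4945 and 4248, a ratio of 0.859 (0.839 to 0.880). NFE2L2, the related oxidative stress factor, was at 157 and 186, a ratio of 1.19 (1.03 to 1.37). NGLY1 was the one of these 3 past 1.3-fold, and it was lower; with the shift of either other scaling given below it no longer passes, at ratios of 0.830 and 0.856.

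Of the genes that supply ubiquitin, UBB, which encodes a chain of ubiquitin units, was at 22480 and 23819, a ratio of 1.06 (1.04 to 1.08). RPS27A, which encodes ubiquitin fused to a ribosomal protein, was at 8406 and 8196, a ratio of 0.975 (0.937 to 1.01). Shuttles bring tagged proteins to the proteasome, and of these RAD23B had a ratio of 0.884 (0.75 to 1.04), UBQLN1 0.909 (0.819 to 1.01) and UBQLN4 0.959 (0.758 to 1.21). The intervals of RPS27A and of these 3 shuttles held 1, and none of these 5 genes passed 1.3-fold. No row was matched to UBQLN2.

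Genes of other complexes, taken by symbol, gave a scale for these medians, without a test. The CCT chaperonin, which folds actin and tubulin, had a median log2 ratio of 0.06 over 7 measured genes, all between -0.02 and 0.10, with 1 interval above 1. The list for respiratory complex I had a median of 0.12 over 37 genes, with 2 higher by 1.3-fold and 16 intervals above 1 against 1 below. It holds 5 assembly factors, the NDUFAF genes, and the median was also 0.12 over the other 32. The list for the cytosolic ribosome had a median of -0.04 over 65 genes, with 13 intervals above and 28 below 1. Without RPS19BP1 and RPL7L1, which are not subunits of the mature ribosome, the median over 63 genes was -0.04. The median over all 34 measured proteasome genes was 0.17, against 0.12 for complex I. The proteasome core, at 0.32, had the highest of these medians, but it is a part set against undivided complexes. That of base and lid together, 0.16 over 13 genes, was close to complex I.

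**Figure D3:**
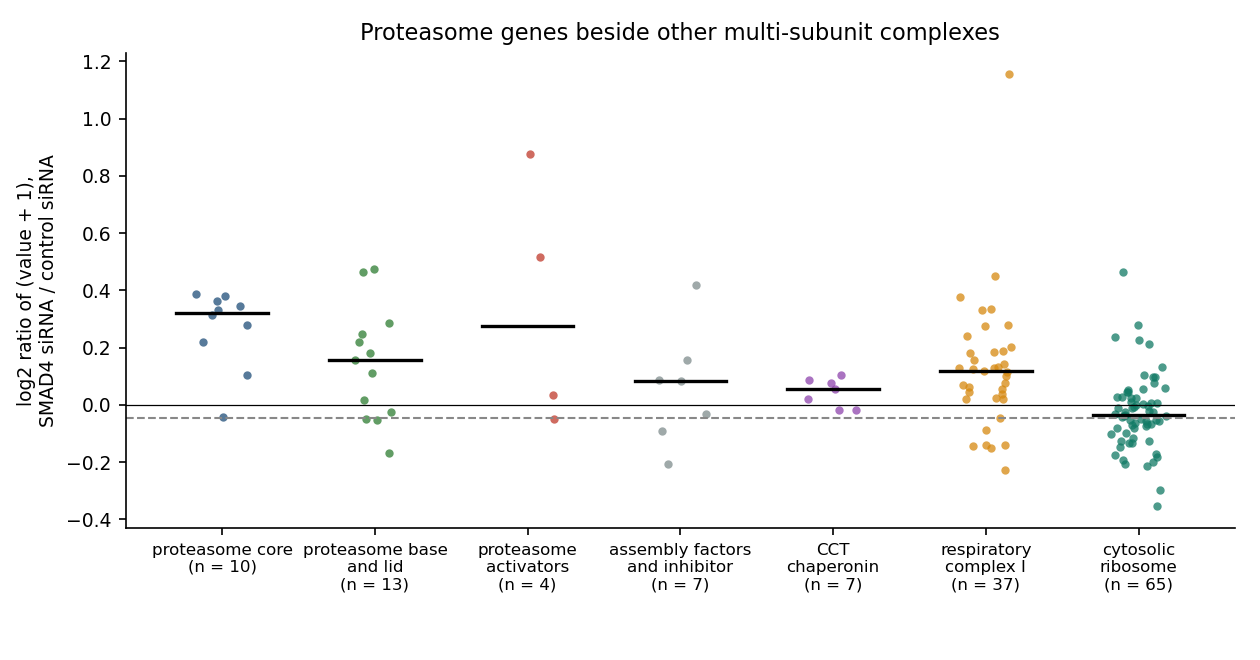
Log2 ratio of (value + 1), SMAD4 siRNA over control siRNA, for each measured gene (points, spread sideways at random) of the proteasome groups and of 3 other complexes, with black bars at the medians, a thin line at 0 and a dashed line at the all-gene median of -0.05. Core points cluster near their median of 0.32, activators split into a high and a low pair, and CCT genes lie between -0.02 and 0.10.

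The smallest whole length, a lower bound of gene length, moved with the ratio. Across the 33 proteasome genes with at least 100 reads, Spearman's rho between the smallest whole length and the log2 ratio was -0.35, and across all 9664 such genes it was -0.13, both given as descriptions over genes that share the libraries. The 14 proteasome genes with a smallest length under 1000 bases had a median log2 ratio of 0.25, against -0.01 over 1857 genes in that class. The 14 from 1000 to under 2000 bases had 0.08, against -0.02 over 2865 genes. By their medians, proteasome genes of the class under 1000 bases were thus higher than those of the next class, and higher than all genes of their own class. Among them were 7 of 10 core subunits and both PSME1 and PSME2. Genes of greater true length can fall in a class of small smallest length, so the classes do not sort genes by true length. The part of length in the difference between core and cap was not tested.

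The scaling of the libraries sets where 1 lies for all genes alike. Bringing both libraries to the same sum of values adds 0.12 to the log2 ratio of plain values. Scaling by the total of the recovered reads, called total reads here, adds 0.16. The all-gene median then becomes 0.06 and 0.11. The recovered reads are lower bounds, gene by gene, so the second scaling need not match the true totals of the libraries. With the same sum, 13 of 34 proteasome genes were higher by 1.3-fold and 0 lower, where 14.3% of all genes were higher and 8.62% lower. With total reads these were 16 and 0, against 27.1% and 15.3%. With the same sum the pseudocount of 1 weighed more on low genes, and not all log2 ratios moved by 0.12. SMAD4 went from -0.81 to -0.58. The 14.3% and 8.62% are thus not like for like with the 19.4% and 21.8% as deposited, and are no firm background for the 13. Of the 9 genes with a ratio below 1, 7 turned to above 1 under either of these scalings, and PSMD1 and PSMD9 alone did not. Their ratios came to 0.965 and 0.941 with the same sum and 0.995 and 0.970 with total reads, and all 4 intervals held 1, as did those of IRF9. Under neither scaling did any of the 34 have an interval wholly below 1, while 22 and 24 had one above. The shares of all genes with such intervals were not counted under these scalings, which move all ratios up. These counts therefore have no background beside them. The direction given above for PSMA4, PSMC1, PSMD5, PSMD6, PSMD11, PSME3 and PSMG1, and for PSMC5, RPS27A, UBQLN4 and EMC9, whose ratios lie in the same range from 0.921 to 1, therefore rests on the upper-quartile scaling. With total reads the ratios of UBQLN1 and KIAA0368 turned as well. Relative to the all-gene median, the core stood 0.37 higher on the log2 scale with the values as deposited.

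**Figure D4:**
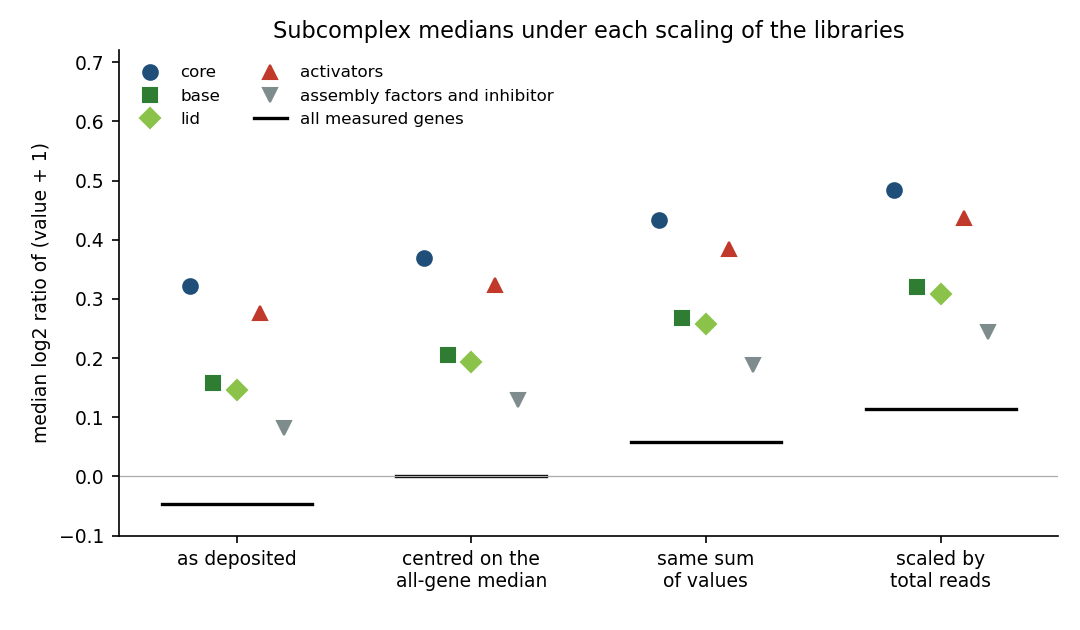
Median log2 ratio of (value + 1) of each proteasome group (symbols) and of all measured genes (black bars) with values as deposited and under 3 other scalings of the libraries. All groups move up together with the all-gene median, and the core stays highest, from 0.32 as deposited to 0.48 when scaled by total reads.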

How the data were processed

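RNA of 1 control siRNA and 1 SMAD4 siRNA library was analysed, each from a pool of 3 individuals, per the labels' protocols. The authors deposited RPKM with upper-quartile scaling, as the table names say. Aligner, read counter, build and annotation were not given in the sources used here, and how reads shared with pseudogenes were assigned is unknown.

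The commonest ratio between the libraries, 0.908163 in 665 of 16239 genes above 0 in both, set the divisors 890 and 980, the smallest multiples at which all 18428 genes above 0 gave whole reads at a whole length up to 40000 bases (relative tolerance 2e-09, absolute 1e-06). These reads and lengths are lower bounds, which can only widen the intervals. The smallest lengths of PSMC6, POMP and the non-coding SEM1 row were 148, 147 and 69 bases. Intervals of ratios are exact Clopper-Pearson at 95%, and those of proportions between genes come from the exact conditional odds ratio. No molecular identifiers were stated, so reads may repeat molecules. A pseudocount of 1, a minimum mean value of 1 and a threshold of 1.3-fold were used; log2 ratios understate low genes.

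Members, lists and alternatives were chosen with earlier results of these data known. All members were named, with intervals for the 3 highest and 3 lowest of each subcomplex by ratio and by control level and for those past 1.3-fold, as were the listed partners, regulators and immunoproteasome genes. Of the list of ubiquitin genes and shuttles, some members and the summary over the list are not reported here. EMC9 and IRF9 were chosen as neighbours after PSME1 and PSME2 had been seen, and the gene pairs compared within a library were chosen after their values. Other scalings, pseudocounts, minimums and thresholds were tried. Lists without single rows, and ratios with intervals under the other scalings, were added after seeing the data. Steps were tested on simulated data. Python 3.11.15, scipy 1.17.1, numpy 2.4.6 and pandas 2.3.3 were used.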

Additional observations from a re-analysis of the deposited data

How the results depend on the processing

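With 1 library per group, no value has a replicate check, and leaving out a library was not possible. Of the 34 measured proteasome genes, 7 were higher by 1.3-fold with values as deposited, against 19.4% of all genes. With both libraries at the same sum 13 were higher, against 14.3%, which is no firm background, as said above. When scaled by total reads 16 were higher, against 27.1%. At 1.5-fold 1 was higher (13.5% of all genes) and at 2-fold 0 (7.17%), and 18 had a counting interval above 1 (12.7%). The lower count was 0 except by a counting interval below 1, which gave 2, against 21.5% of all genes. The overall median of 0.17 became 0.33 when scaled by total reads. With the same sum, the medians of core and base became 0.43 and 0.27. When scaled by total reads, core, base, lid and activators were at 0.48, 0.32, 0.31 and 0.44. These shifts follow from the scaling, which moves the ratios of plain values of all genes alike. The log2 ratios of (value + 1) did not all move alike with the same sum, where the pseudocount weighed more on low genes. There PSMC3IP went from 0.54 to 0.50 and PSMD12 from 0.47 to 0.49. With pseudocounts of 0.1 and 5, no minimum or a minimum of 100 reads the overall median lay between 0.16 and 0.17. The base median became 0.09 with at least 100 reads, below the 0.15 of the lid, and that of assembly factors 0.02 with no minimum. No called gene turned its direction under the 7 alternatives run for single genes, but none could have. The scalings add at most 0.16 to the log2 ratio of plain values, less than the 0.38 of 1.3-fold. Pseudocounts and minimums cannot change its sign. Chosen after seeing the data, adding PSMC3IP gave a median of 0.18, and adding PSMB5, PSMC5, PSMD3, POMP and SEM1 from the reference names gave 0.15 with 7 higher and 0 lower. The search for promoter motifs was not run.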
